A study of Homo sapiens with 20 samples.

Results

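DEAD and DEAH box RNA helicases use the energy of ATP to open RNA duplexes or to strip proteins from RNA, and they take their names from the residues of the motif that binds ATP. They drive nearly every step of an RNA's life: some remodel the spliceosome, others mature ribosomal RNA in the nucleolus, and others act in export, translation or decay. Their own transcripts carry binding sites for splicing factors, and those sites are what the values here describe.

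The members were all human genes whose symbol was DDX or DHX followed by a number and at most 1 letter, leaving aside 3 genes that were not analysed here, and which had at least 1 iCLIP peak. They were 47 of the 19362 gene IDs with a peak. Another 6 symbols of this form (DDX4, DDX25, DDX28, DDX43, DDX52 and DDX53) had no peak in any library. All 47 had a U2AF2 peak as deposited, 37 had an SRSF1 peak and 42 had an hnRNPA1 peak. The only peak of DHX58, in U2AF2 overexpression replicate 3, had 3 reads, below the minimum of 6 reads used here, so it entered no value.

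Individual-nucleotide crosslinking and immunoprecipitation (iCLIP) sequences the RNA that ultraviolet light has joined to 1 protein. It was done for U2AF2, which binds the polypyrimidine tract before a 3′ splice site, for SRSF1, an SR protein that promotes exon inclusion, and for hnRNPA1, which often opposes it. The overexpressing cells carried inducible T7-tagged hnRNP A1 in TREX FLP-In 293T cells, a line derived from human embryonic kidney, and the control cells were the same parental line without it. Both had tetracycline for 24 h and 3 days of drug selection, with hygromycin named for the inducible line, and iCLIP started from nuclear extracts. There were 3 overexpression and 3 control libraries for U2AF2, 3 and 3 for SRSF1, and 2 and 2 for hnRNPA1. Since overexpression and control are different cell lines, the effect of hnRNPA1 and of the line cannot be told apart. Nothing in the labels says that replicates were separate cultures, so p-values measure only the spread between these libraries.

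Depth ran against the comparison in opposite ways. With U2AF2, overexpression libraries held 2317615 to 3291468 reads in peaks of at least 6 reads and control libraries 702563 to 1158060. With SRSF1 they held 175293 to 329448 and 125082 to 173766. With hnRNPA1 they held 549365 and 575471, against 2973275 and 2508821 in control. U2AF2 overexpression replicate 3 was deposited with peaks from 3 reads upwards and another set of gene IDs, so peaks under 6 reads were left out of it. Of 6 markers of an epithelial kidney line, 5 had a peak; of 6 blood markers only LYZ had one. Among the 5 germ cell markers 2 had one, and DDX4 itself had none. In U2AF2 libraries the summed normalised reads of the kidney line list were 58.0 to 80.2 with overexpression and 581 to 642 in control, those of the blood list 192 to 206 and at most 92.4, and those of the germ cell list 21.1 to 72.8 and 0, and their part in the results below was not tested. Because a read count in iCLIP depends on the amount of the RNA as well as on binding to it, fewer RNA molecules and less binding per molecule cannot be told apart.

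The family label was checked against the coding sequences of GENCODE v29 (GRCh38). The motif stood in frame in 44 members. It read DEAD in 24 genes and DEAH in 8, with DEVH in 6, DEVD in 2, DECD in 2, DEIH in 1 and DECH in 1. DHX32 had none of these spellings, and DDX12B and DDX12P are annotated as pseudogenes without a coding sequence. The stretches below are shown so that the spellings of the motif can be compared among genes described further on; the 12 bases in capitals encode the motif, on the coding strand, with 9 bases on each side.
DDX5: cttgtccttGATGAAGCAGATagaatgctt
DDX17: cttgtattgGACGAAGCTGACagaatgctt
DDX3X: ttggtgttaGATGAAGCTGATcggatgttg
DDX46: gttgttttaGATGAAGCAGACagaatgttt
DDX39B: tttattttgGATGAATGTGATaagatgctt
DHX15: ataattcttGATGAGGCTCATgagaggaca
DHX36: atcgtacttGATGAAATCCATgaaagaaat
DHX57: atcattgttGATGAAGTTCATgagaggaca
In GRCh38 these lie within single coding exons: exon 7 of 13 of DDX5 (chr17:64503236-64503265, minus strand), exon 7 of 13 of DDX17 (chr22:38494934-38494963, minus), exon 12 of 18 of DDX3X (chrX:41345184-41345213, plus) and exon 13 of 23 of DDX46 (chr5:134790502-134790531, plus). Those of DDX39B (chr6:31536510-31536539, minus), DHX15 (chr4:24556314-24556343, minus), DHX36 (chr3:154304921-154304950, minus) and DHX57 (chr2:38854062-38854091, minus) lie in exon 5 of 11, exon 4 of 14, exon 8 of 25 and exon 9 of 24. DDX5 and DDX17 spell DEAD, DDX39B spells DECD, DHX15 spells DEAH, DHX36 spells DEIH and DHX57 spells DEVH.

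The helicase signal was uneven among the transcripts. DDX17, DDX5, DDX3X, DDX39B, DDX46 and DHX15 together took 46.5% to 52.0% of the helicase reads in the U2AF2 overexpression libraries and 84.8% to 89.3% in the U2AF2 control libraries. In the SRSF1 libraries they took 83.4% to 83.9% with overexpression and 79.7% to 82.0% in control, and with hnRNPA1 80.1% to 81.8% and 75.0% to 76.7%. Corrected for gene length, DDX17 led in U2AF2 control cells: it held 32.3 ± 5.60 reads per kilobase and per 1000000 with overexpression and 188 ± 23.1 in control (SD, n = 3 each). DDX39B, on the same length-corrected scale, held 48.7 ± 5.41 and 122 ± 11.8, DDX5 15.3 ± 5.43 and 94.3 ± 11.3, and DDX3X 4.58 ± 0.639 and 39.7 ± 3.16. In control cells the ranges of these 4 genes, as mean and SD, do not meet.

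U2AF2 reads fell on the helicase transcripts that held most of them in control cells, a choice that itself favours a fall. All helicase genes together held 4462 to 5034 reads per 1000000 in U2AF2 peaks with overexpression and 10336 to 12303 in control. The coregulators DDX5 and DDX17, the translation factor DDX3X and the spliceosome disassembly helicase DHX15 fell most among members with a peak in every library, while the ribosome biogenesis genes DDX51 and DHX33 rose. In all, 8 of the 45 members tested were higher with overexpression and 14 were lower (limma on log2 normalised reads, adjusted p below 0.05). The higher ones include DHX37, DDX54 and DDX49, which had no called peak in any control library. Among all 12709 genes tested 28.4% were higher and 17.4% lower. The median log2 change was -0.30 over the tested members and 0.76 over all genes. Where only genes with a peak in all 6 libraries were tested, 5 of 34 members were higher and 14 lower, against 30.2% and 31.6% of all such genes, with medians of -0.76 and 0.02.

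**Figure D1:**
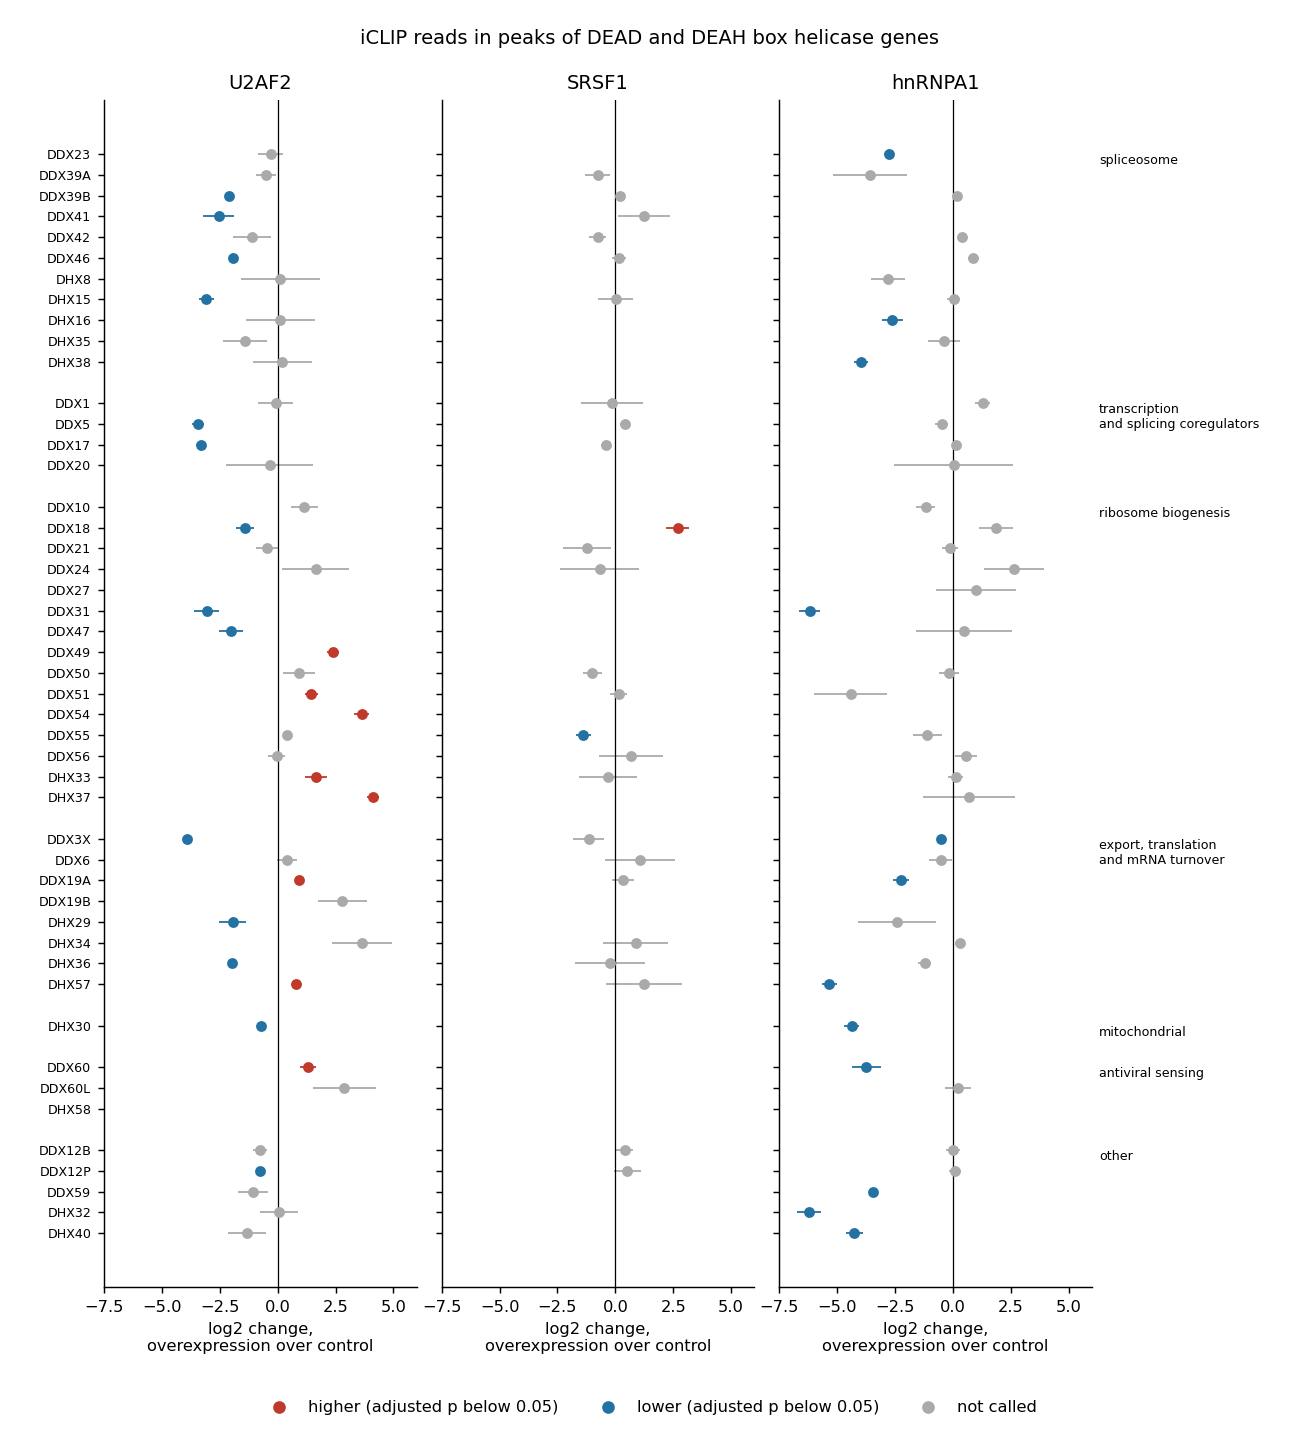
Log2 change of iCLIP reads in peaks, overexpression over control, for each helicase gene tested, with its standard error, in U2AF2, SRSF1 and hnRNPA1 libraries; genes run down the page by role, and red, blue and grey points mark higher, lower and uncalled genes. With U2AF2, 8 genes are higher and 14 lower, with SRSF1 1 and 1, and with hnRNPA1 0 and 12; points of genes with no peak in a whole condition show fitted values that are no measure of size.

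Among the transcription and splicing coregulators, 2 of 4 genes were lower with U2AF2 and none higher, against 17.4% and 28.4% of all genes. DDX17, which with its paralog DDX5 acts as a coactivator of transcription and a splicing regulator, had 796, 1098 and 853 normalised U2AF2 reads with overexpression, against 9882, 10050 and 7651 in control. Every overexpression library lay far below every control library, a log2 change of -3.33 ± 0.19 (SE; limma adjusted p = 0.000129). DDX5 had 122, 216 and 122 normalised U2AF2 reads with overexpression, against 1605, 1891 and 1420. The groups stood apart by a log2 change of -3.45 ± 0.26 (limma adjusted p = 0.000177). DDX1 and DDX20 had log2 changes of -0.09 and -0.35 and did not pass the test.

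For DDX17, DDX5 and DDX3X the fall was visible in the reads before any scaling. DDX17 held 1886, 2178 and 2344 U2AF2 reads in the overexpression libraries and 3424, 3806 and 4514 in the control libraries, although the overexpression libraries were the deeper ones. DDX3X held 350, 384 and 438 reads with overexpression and 946, 904 and 1404 in control. DDX5 held 290, 429 and 335, against 556, 716 and 838. DDX39B and DDX46 fell only after scaling. Before it DDX39B held 1554, 1551 and 1783 reads, against 1131, 1205 and 1543. DDX46 held 1408, 1247 and 1807, against 783, 1035 and 1361. DHX15 held 247, 283 and 301, against 257, 614 and 492, and the groups overlapped.

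Of the 11 spliceosome helicases none rose and 4 fell with U2AF2, against 28.4% and 17.4% of all genes. DHX15, which takes apart spent spliceosomes, had 104, 143 and 109 normalised U2AF2 reads with overexpression, against 742, 1621 and 834 in control, a log2 change of -3.08 ± 0.33 (limma adjusted p = 0.00068). DDX39B, a partner of U2AF2 in early spliceosome assembly and a link to mRNA export, had 656, 782 and 649, against 3264, 3182 and 2615, a log2 change of -2.12 ± 0.14 (limma adjusted p = 0.000135). DDX46, which acts on the U2 snRNP at the branch point, had 595, 628 and 657, against 2260, 2733 and 2307, a log2 change of -1.95 ± 0.12 (limma adjusted p = 0.000129). For each of these genes no overexpression library reached a control library in normalised reads. In deposited reads DHX15 and DDX46 overlapped between conditions, and DDX39B was higher in every overexpression library. DDX41, a spliceosome helicase also studied in innate immunity, held only 19, 12 and 17 reads as deposited, against 26, 23 and 11, with a log2 change of normalised reads of -2.55 ± 0.68 (limma adjusted p = 0.0269). Its deposited reads overlapped between the conditions and its normalised reads did not.

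The other spliceosome genes named by role did not pass the test. DDX42, found with the U2 snRNP, had 111, 104 and 96.8 normalised U2AF2 reads with overexpression, against 60.6, 401 and 463 in control. Control replicate 1 lay below all the others, so the groups overlapped (log2 change -1.11, limma adjusted p = 0.3). DDX39A, the paralog of DDX39B, had 24.1, 21.7 and 14.9, against 34.6, 23.8 and 28.8 (log2 change -0.51, limma adjusted p = 0.359). DDX23, part of the U5 snRNP, had 13.9, 20.2 and 31.3, against 34.6, 31.7 and 15.3, and the groups overlapped.

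**Figure D2:**
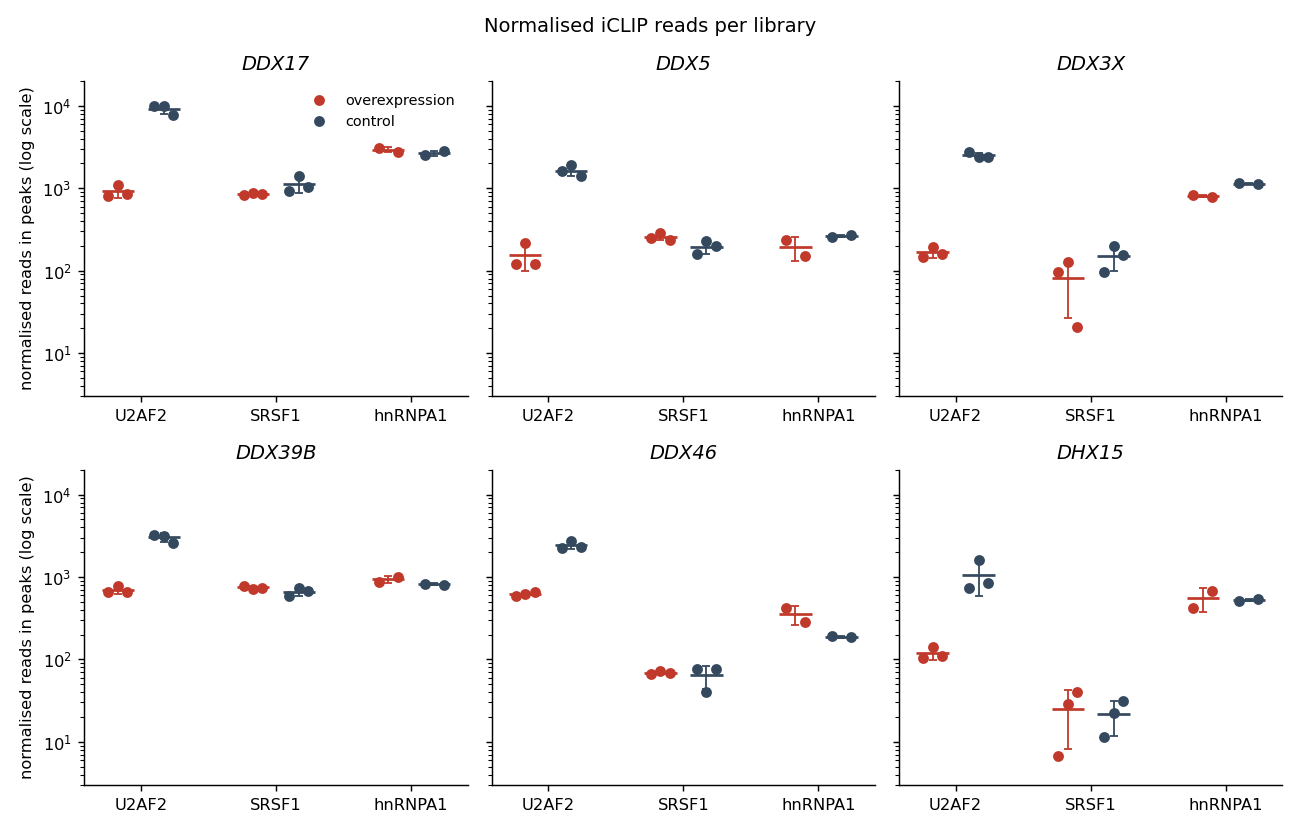
Normalised iCLIP reads in peaks per library (log scale) of 6 helicase genes in U2AF2, SRSF1 and hnRNPA1 libraries, with overexpression in red left of control in dark blue; bars give the mean and SD. For U2AF2 every overexpression library of these genes lies below every control library, as for DDX17 with 796 to 1098 against 7651 to 10050, while with SRSF1 none of the 6 genes and with hnRNPA1 DDX3X alone passed the test.

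Export, translation and turnover genes went both ways. DDX3X, which helps translation of mRNAs with structured leaders, had 148, 194 and 159 normalised U2AF2 reads with overexpression, against 2730, 2387 and 2380 in control. Its log2 change of -3.90 ± 0.13 (limma adjusted p = 8.91e-05) was the most negative of all tested members. DHX36, which unwinds G-quadruplexes, had 43.1, 43.8 and 39.7, against 159, 195 and 153, a log2 change of -1.97 ± 0.17 (limma adjusted p = 0.000255). DHX29, which helps ribosomes scan structured leaders, also fell, with a log2 change of -1.95. DDX19A, which releases mRNA at the nuclear pore, and DHX57 rose, with log2 changes of 0.92 and 0.81. These 2 rises are close to the median of all genes, 0.76. DDX6, the decay and decapping helicase, had 117, 112 and 108, against 147, 92.4 and 45.8, and the groups overlapped (log2 change 0.39, limma adjusted p = 0.489). In all, 2 of 8 rose and 3 fell, against 28.4% and 17.4% of all genes.

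In the ribosome biogenesis group 5 of 14 tested genes rose and 3 fell, against 28.4% and 17.4% of all genes. Their median log2 change was 1.03, against 0.76 over all genes. DDX51, which acts in maturation of the large subunit RNA, had 911, 818 and 1084 deposited U2AF2 reads with overexpression, against 33, 71 and 100 in control, a log2 change of normalised reads of 1.45 ± 0.27 (limma adjusted p = 0.0069). DHX33, a nucleolar helicase, had 269, 288 and 280 reads, against 8, 28 and 17, a log2 change of 1.67 ± 0.47 (limma adjusted p = 0.0327). DHX37, needed for the small subunit, had 44, 25 and 50 reads with overexpression and no called peak in any control library (limma adjusted p = 0.000134). DDX54 had 38, 24 and 20 reads and DDX49 had 7, 13 and 10, again with no called peak in control (limma adjusted p = 0.00031 and 0.000769). These 3 genes passed the filter only through the overexpression libraries, and a fold cannot be given for them. In the U2AF2 control libraries the smallest listed peak is worth 17.3, 15.8 and 10.2 normalised reads. DDX49 had 2.96, 6.55 and 3.64 with overexpression, below all of these. DDX54 (16.0, 12.1 and 7.28) and DHX37 (18.6, 12.6 and 18.2) lay within or near that range. The p-values of these 3 genes, which are 3 of the 5 rises, therefore cannot tell a change from the peak minimum. DDX31 fell: it had 21, 38 and 59 reads with overexpression, against 64, 75 and 42 in the shallower control libraries, a log2 change of normalised reads of -3.07 ± 0.55 (limma adjusted p = 0.00598), again with deposited reads that overlapped. DDX47 and DDX18 fell as well, by 2.00 and 1.41 on the log2 scale. DDX21, the nucleolar helicase that couples polymerase I to rRNA processing, had 65.4, 60.0 and 53.1 normalised reads, against 40.4, 135 and 103, and did not pass (limma adjusted p = 0.445).

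In the remaining groups, DHX30, which assembles the mitochondrial ribosome, fell by 0.70 and the pseudogene DDX12P fell by 0.75 on the log2 scale (limma adjusted p = 0.00695 and 0.0241). Neither call held on these scales: the log2 changes were 0.08 and 0.04 when scaled to total reads in peaks, and 0.39 and 0.12 by number of peaks, none past the threshold. Reads of DDX12P and its copy DDX12B may be split between them. DDX60, which aids antiviral sensing of RNA, rose: it had 95, 100 and 149 deposited reads with overexpression, against 6, 6 and 14 in control (log2 change of normalised reads 1.31 ± 0.36, limma adjusted p = 0.0291). Control replicates 1 and 2 held only the minimum of 6 reads, and any weaker peaks count as 0. The size of the DDX60 change therefore depends on that minimum, and the call was not made with thinned libraries. By motif, 4 DEAD genes rose and 8 of 23 tested fell with U2AF2, against 2 and 1 of 8 DEAH genes and 2 and 2 of 6 DEVH genes, beside 28.4% and 17.4% of all genes. The difference between the motif classes was not tested.

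With every library thinned to the shallowest of its protein, 16 of 34 tested members were lower with U2AF2 and 2 higher (DDX51 and DHX33). All genes gave 31.1% and 21.5%. Peaks left with under 6 reads were dropped again, so the deeper libraries ended with fewer reads in peaks than the shallowest, and depth was not made equal. Scaled to total reads in peaks, 12 members rose and 8 fell, against 42.3% and 11.6% of all genes, whose median moved to 1.47. On that scale the log2 changes of DDX17, DDX5 and DDX3X were -2.54, -2.67 and -3.12. With quantile normalisation the log2 changes of DDX17 and DDX46 were -1.04 and -0.38, and that of DDX39B, -0.38, missed the threshold (limma adjusted p = 0.0521). Without overexpression replicate 1, 2 or 3 the 22 calls became 10, 10 and 11. Calls over all genes dropped as well. Without replicate 1, 1050 of 10909 genes rose and 1588 fell, against 3613 and 2208 of 12709 with every library.

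The sites themselves differed between conditions. Peaks of the 6 U2AF2 libraries merged into 1101 sites in helicase genes: 319 had a peak in at least 2 overexpression libraries and in no control library, 94 the reverse, and 65 had one in at least 2 libraries of each condition. After thinning, which also left out peaks of the deeper libraries that then had under 6 reads, those counts were 76, 117 and 48. The excess of overexpression sites turned into an excess of control sites. In DDX17, of 84 sites, 21 were found with overexpression only, 20 in control only and 18 in both. In DDX46, of 106 sites, 39 were found with overexpression only and 6 in control only. In DDX3X, of 57 sites, 12 were found with overexpression only and 19 in control only.

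Some single sites carried much of a gene's signal. In DDX46, a U2AF2 site at hg19 chr5:134124391-134126226 (plus strand) held 180, 221 and 175 deposited reads with overexpression, against 628, 774 and 882 in control. It made up 13.4% of the normalised U2AF2 reads of the gene with overexpression and 73.3% in control, and the number of peaks in DDX46 gave a log2 change of 0.15 (limma adjusted p = 0.773). In DDX3X, the strongest control site, at chrX:41198060-41198357 (plus), held 0, 0 and 11 reads with overexpression, against 111, 157 and 163. In DHX15, the strongest control site, at chr4:24539261-24540112 (minus), held 0, 0 and 17, against 106, 172 and 134. In DDX5, the strongest control site, at chr17:62496754-62497071 (minus), held 45, 67 and 41 reads, against 214, 289 and 295. The strongest overexpression site of DDX17, at chr22:38885293-38885381 (minus), went the other way in deposited reads. It held 212, 280 and 245 reads with overexpression, against 0, 0 and 39. Those of DHX15 (49, 57 and 48, against 0, 0 and 9) and DDX39B (328, 295 and 335, against 46, 36 and 81) did so too. That of DDX3X held 71, 86 and 109, against 31, 36 and 57. That of DDX5 overlapped, and in DDX46 it was the control site above. Sites picked by their level in 1 condition tend to be higher in it, and the overexpression libraries were deeper. Which exon or intron these hg19 intervals fall in was not analysed here.

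Peaks of U2AF2 in helicase genes were set beside those of hnRNPA1. The share of helicase U2AF2 peaks that overlapped an hnRNPA1 peak of control cells by at least 1 base was 26.5%, 30.1% and 27.1% with overexpression, against 63.1%, 55.3% and 57.4% in control, and no library of 1 condition reached the other. Over all U2AF2 peaks the same share was 30.4%, 32.2% and 31.1%, against 46.5%, 42.8% and 41.6%. For SRSF1 peaks in helicase genes it was 73.2%, 63.1% and 71.7%, against 63.6%, 56.3% and 61.7%, and the conditions overlapped. The deeper libraries list more weak peaks, and their part in these shares was not tested.

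SRSF1 reads passed the test on few helicase genes. Of 25 members tested, 1 was higher and 1 lower, against 6.38% and 1.95% of the 5598 genes tested, and the median log2 change was 0.15 over members and 0.36 over all genes. DDX18 had 6, 8 and 6 SRSF1 reads with overexpression and no called peak in control (limma adjusted p = 0.0252). It passed the filter only through the overexpression libraries, and no fold is given for it. Its reads lie at or near the minimum of 6, so its p-value cannot tell a change from that minimum. DDX55, a large subunit assembly factor, had 31, 36 and 46 reads, against 96, 58 and 55, a log2 change of normalised reads of -1.39 ± 0.32 (limma adjusted p = 0.0441). Neither call held in every alternative: the count was 0 without any 1 overexpression library, and 0, 0 and 1 without control replicates 2, 3 and 1. Over all genes, leaving out overexpression replicates 1, 2 and 3 gave 11, 1 and 2 higher and 4, 1 and 1 lower.

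None of the 6 transcripts that led the U2AF2 signal in control cells passed the test with SRSF1, though DDX17 did with another scaling. DDX17 had 839, 868 and 846 normalised SRSF1 reads with overexpression, against 938, 1415 and 1041 in control (log2 change -0.39, limma adjusted p = 0.389). With quantile normalisation DDX17 was called lower (log2 change -0.74, limma adjusted p = 0.0489). DDX5 had 250, 288 and 239, against 159, 232 and 197 (log2 change 0.41, limma adjusted p = 0.362). In both genes the groups did not overlap, yet the change missed the threshold. DDX46 had 65.9, 71.8 and 69.0, against 75.4, 40.7 and 76.1, and DDX39B had 783, 720 and 733, against 581, 733 and 667, with log2 changes of 0.16 and 0.18. DDX3X had 97.2, 127 and 20.7, against 97.4, 197 and 156, with overexpression replicate 3 the lowest of the 6 libraries (log2 change -1.16, limma adjusted p = 0.426). DHX15 had 6.71, 28.7 and 39.9, against 11.5, 22.1 and 30.9.

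A test of the difference itself compared the change of U2AF2 with that of SRSF1 over the 12 libraries. Of 40 members, 8 had a U2AF2 change below their SRSF1 change and 1 above it, against 10.9% and 3.55% of the 8801 genes tested. DDX5 differed by a log2 value of -3.86 ± 0.35 (limma adjusted p = 4.94e-05), DDX17 by -2.94 ± 0.24 (limma adjusted p = 2.46e-05) and DDX39B by -2.30 ± 0.18 (limma adjusted p = 1.64e-05). DDX46, DHX15 and DDX3X differed by -2.11, -3.09 and -2.74 (limma adjusted p = 0.0018, 0.0373 and 0.0397). The calls of these 3 genes were lost when scaled to total reads in peaks (limma adjusted p = 0.0864, 0.112 and 0.141) and by number of peaks, where DDX46 turned to 0.32. With quantile normalisation DDX17, DDX39B and DDX46 differed by -0.24, -0.28 and -0.51, none past the threshold (limma adjusted p = 0.561, 0.493 and 0.392). By number of peaks DDX39B differed by -0.37 (limma adjusted p = 0.567), and when thinned DHX15 missed the threshold (limma adjusted p = 0.105). The replicate block lost the call of DDX3X (limma adjusted p = 0.0785). DDX55 was the member above, by 1.80 ± 0.41 (limma adjusted p = 0.0158). Scaled to total reads the split was 4 below and 4 above, against 6.62% and 9.52% of all genes. With libraries thinned within each protein it was 6 and 1 of 25, against 12.6% and 6.67%. Without U2AF2 control replicate 2 or overexpression replicate 1 the 9 calls became 5 each. Over all genes these settings gave 165 and 78 above and 600 and 521 below, against 312 and 962 with every library.

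DDX39B held 2 sites of a particular kind. Its introns carry the box C/D snoRNAs SNORD84 and SNORD117, guides for modification of other RNAs, and the SRSF1 reads of the gene gathered on them. They are shown because the reads listed under DDX39B at them differ between conditions; in the RNA sense strand, written as DNA, the capitals mark the C box core TGATG and the D box CTGA.
SNORD84: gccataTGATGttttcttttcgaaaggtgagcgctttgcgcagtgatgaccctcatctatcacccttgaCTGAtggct
SNORD117: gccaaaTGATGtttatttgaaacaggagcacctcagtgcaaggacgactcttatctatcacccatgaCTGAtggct
In GENCODE v29 (GRCh38) SNORD84 is 78 bases long in intron 1 of DDX39B (chr6:31541101-31541178, minus) and SNORD117 is 76 bases long in intron 5 (chr6:31536374-31536449, minus).

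At the SNORD84 site, hg19 chr6:31508877-31508947 (minus), DDX39B had 0, 0 and 0 U2AF2 reads with overexpression, against 197, 182 and 209 in control. SRSF1 went the other way there, with 334, 404 and 390 reads with overexpression, against 96, 61 and 135, and every overexpression library lay above every control library. The share of the SRSF1 reads of the gene that fell on this site was 47.6%, 36.6% and 40.8% with overexpression and 15.8%, 14.1% and 22.3% in control. With hnRNPA1 the site held 31 and 85 reads, against 251 and 249 in the deeper control libraries. The hnRNPA1 shares of 8.52% and 19.3% with overexpression lay on either side of those in control.

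At the SNORD117 site, hg19 chr6:31504150-31504216 (minus), U2AF2 had 0, 0 and 0 reads with overexpression, against 124, 124 and 165. SRSF1 had 259, 423 and 371 reads, against 178, 95 and 248, and the shares of 36.9%, 38.3% and 38.8% with overexpression overlapped those of 29.2%, 22.0% and 41.0% in control. Some reads at these sites were listed under the snoRNA genes themselves. Under SNORD84 this was so in U2AF2 overexpression replicate 3 alone, with 10 reads. Under SNORD117 U2AF2 had 0, 0 and 13 reads with overexpression, against 61, 58 and 78 in control, and SRSF1 had 165, 257 and 227, against 98, 74 and 145. With hnRNPA1 SNORD117 had 30 and 52, against 0 and 152. Without peaks that overlap a snoRNA peak, a check added after the data were seen, DDX39B still fell with U2AF2, by 1.68 on the log2 scale (limma adjusted p = 0.000192). Its SRSF1 change then was -1.16 (limma adjusted p = 0.0682), against 0.18 with them, and neither passed the threshold. Of the DDX39B reads over all libraries, 27.4% stood in peaks also listed under the read-through gene ATP6V1G2-DDX39B, which cannot be told apart from DDX39B.

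**Figure D3:**
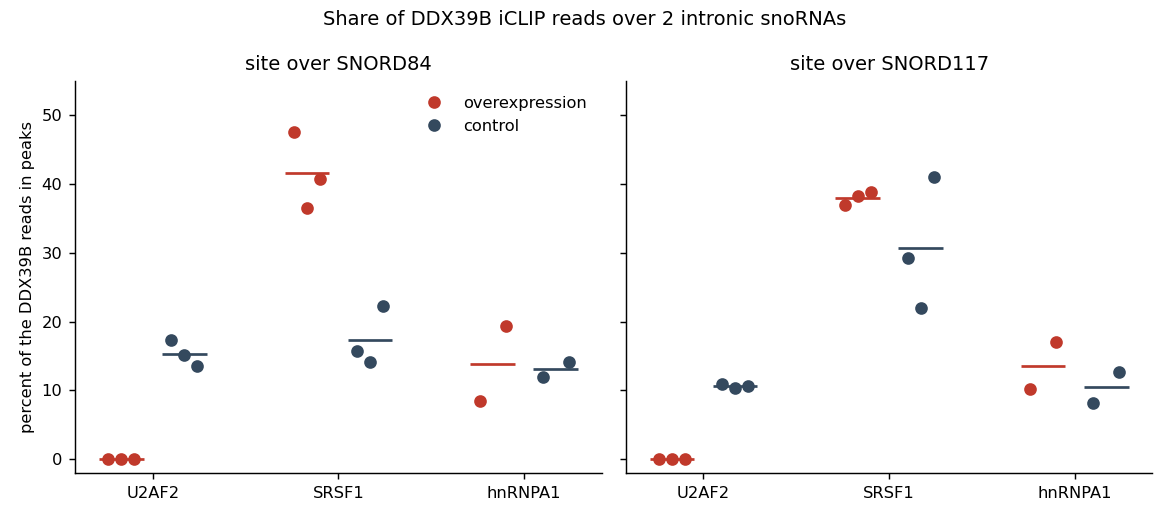
Share of the DDX39B reads in peaks that fell on the sites over SNORD84 and SNORD117, in percent, per library, for U2AF2, SRSF1 and hnRNPA1, with overexpression in red left of control in dark blue and bars at the means. U2AF2 overexpression libraries lie at 0, and the SRSF1 overexpression libraries lie at 36.6% to 47.6% over SNORD84, above 14.1% to 22.3% in control.

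With hnRNPA1 no helicase gene rose and 12 of 42 (28.6%) fell, against 4.31% and 34.1% of the 12461 genes tested. The share of members that fell is near that of all genes. The median log2 change was -0.44 over members and -1.63 over all genes, and with a peak required in every library 2 of 23 members were lower and 0 higher, against 8.33% and 9.50% of all such genes. In 10 of the 12, the shallower overexpression libraries held no called peak at all. DHX32 had 0 and 0 reads with overexpression and 251 and 119 in control (limma adjusted p = 0.00435). DDX31 had 0 and 0, against 153 and 186 (limma adjusted p = 0.00296). DHX57 had 0 and 0, against 91 and 94 (limma adjusted p = 0.00256). The mitochondrial helicase DHX30 had 0 and 0, against 62 and 34, DHX40 0 and 0, against 61 and 30, and the spliceosome helicase DHX38 0 and 0, against 46 and 26. DDX60, DDX59, DDX23 and DHX16 were the other 4, and no fold is given for any of these. The smallest listed peak is worth 14.4 and 13.6 normalised reads with overexpression. In control DDX59 (9.56 and 10.6), DDX23 (4.78 and 6.90) and DHX16 (7.96 and 3.22) lay below that. Their tests cannot tell a change from the peak minimum. The minimum holds per peak, and the strongest DDX31 site averaged only 7.10 in control, against 22.6 for that of DHX57. The p-values of the 10 calls rest on unlisted peaks counted as 0 and alone cannot show a change.

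The other 2 calls and the members named by role had these hnRNPA1 values. DDX3X had 823 and 783 normalised hnRNPA1 reads with overexpression, against 1147 and 1129 in control, a log2 change of -0.50 ± 0.07 (limma adjusted p = 0.015). The call was lost with quantile normalisation, by number of peaks and with the replicate block (limma adjusted p = 0.0542, 0.0591 and 0.056). DDX19A had 9 and 6 deposited reads, against 210 and 188, a log2 change of normalised reads of -2.24 ± 0.35 (limma adjusted p = 0.0211). Its overexpression reads lie at or near the minimum of 6 and unlisted peaks count as 0. The size of the DDX19A change therefore depends on that minimum, and the call was not made with thinned libraries. DDX17 had 3093 and 2789 normalised reads, against 2548 and 2799, and the groups overlapped (log2 change 0.14, limma adjusted p = 0.34). DDX5 had 238 and 150, against 258 and 269, DHX15 426 and 676, against 513 and 538, and DDX39B 876 and 999, against 832 and 806. DDX46 had 416 and 286, against 190 and 185, and its log2 change of 0.87 missed the threshold (limma adjusted p = 0.0743). DHX36 had 31.3 and 27.2, against 81.2 and 60.3, DDX42 226 and 284, against 192 and 198, DDX21 91.4 and 93.1, against 135 and 76.4, DDX6 28.9 and 65.8, against 60.9 and 67.2, and DDX39A 0 and 13.6, against 48.6 and 41.4, none past the threshold.

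The hnRNPA1 calls changed with depth and scaling. With thinned libraries 3 of 27 members were lower (DHX38, DDX3X and DDX17) and 1 higher (DDX24), where all genes gave 11.6% and 14.1%. With quantile normalisation no member and no gene at all was called, where 14 members had an unadjusted p below 0.05. No member was called without control replicate 1 or 2, where 243 and 247 of all genes rose and 77 and 98 fell. Without overexpression replicate 1 or 2 the counts were 19 and 20. Over all genes 1053 and 1023 then rose and 6039 and 6681 fell. Of 731 hnRNPA1 sites in helicase genes, 10 were found in both overexpression libraries and neither control library, 158 the reverse and 60 in all 4, and after thinning 18, 53 and 43.

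At 5 genes the same site can be read with both proteins. For the members that rose with U2AF2 and had a peak in every U2AF2 library, the strongest overexpression site was followed in hnRNPA1 libraries. At DDX51 (hg19 chr12:132623170-132623265, minus) U2AF2 had 362, 286 and 395 deposited reads with overexpression, against 14, 26 and 30 in control, and hnRNPA1 had 0 and 0, against 57 and 50. At DHX57 (chr2:39081800-39082007, minus) U2AF2 had 230, 191 and 263, against 16, 25 and 21, and hnRNPA1 0 and 0, against 52 and 53. At DDX19A (chr16:70381600-70381866, plus) U2AF2 had 274, 225 and 288, against 25, 29 and 38, and hnRNPA1 0 and 6, against 95 and 88. At each of these 3 sites U2AF2 reads were higher in every overexpression library and hnRNPA1 reads lower in both.

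At DHX33 (chr17:5345386-5345443, minus) U2AF2 had 91, 68 and 68 reads, against 0, 6 and 0, and hnRNPA1 0 and 0, against 29 and 39. At DDX60 (chr4:169141036-169141202, minus) U2AF2 had 46, 51 and 77, against 6, 6 and 8, and hnRNPA1 0 and 0, against 29 and 0. The U2AF2 values at DDX51 were 134, 123 and 120 reads per 1000000 with overexpression, against 19.9, 33.2 and 25.9, and the groups do not overlap on this scale. The smallest listed peak of 6 reads is worth 10.9 and 10.4 reads per 1000000 in the hnRNPA1 overexpression libraries. The hnRNPA1 control values of 19.2 and 19.9 at DDX51, 17.5 and 21.1 at DHX57 and 32.0 and 35.1 at DDX19A lie above that level, and those of 9.75 and 15.5 at DHX33 and 9.75 and 0 at DDX60 do not all do so. The sites were chosen by their U2AF2 values, so only the hnRNPA1 values are independent of the choice, and no test was run on them.

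**Figure D4:**
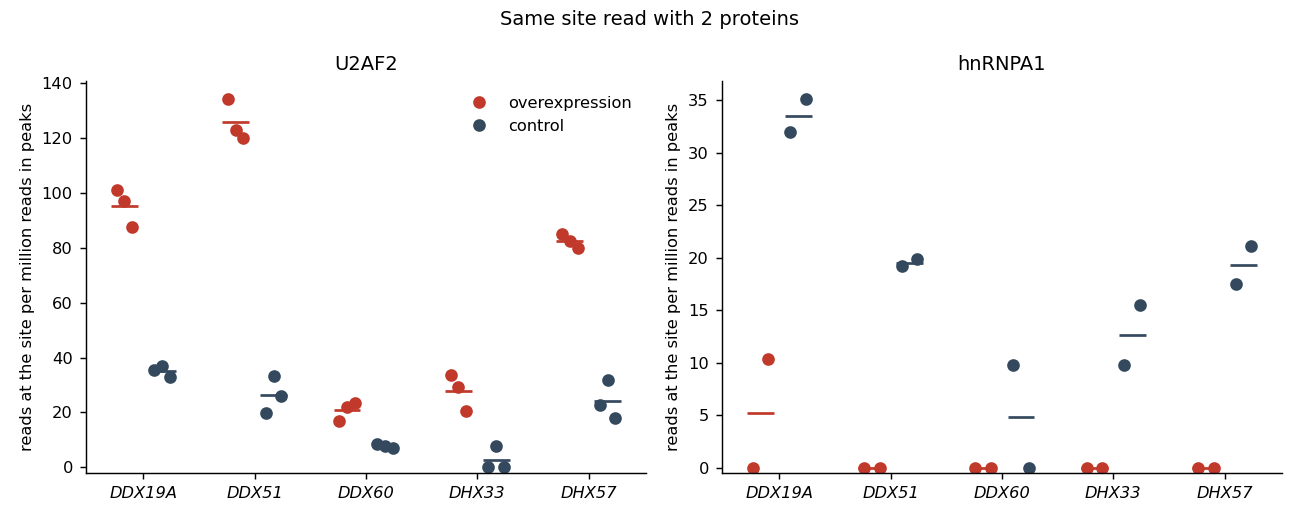
Reads per 1000000 in peaks at 1 site per gene, per library, in U2AF2 libraries (left) and hnRNPA1 libraries (right, another scale), with overexpression in red left of control in dark blue and bars at the means. U2AF2 overexpression libraries lie at 120 to 134 for DDX51, above control at 19.9 to 33.2, while hnRNPA1 overexpression libraries are listed at 0 there, against 19.2 and 19.9 in control.

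Other RNA helicases and helicase cofactors gave the following counts. Of 17 tested RNA helicase genes with other names, 3 rose and 6 fell with U2AF2, with a median log2 change of -0.78. Of all genes 28.4% rose and 17.4% fell, with a median of 0.76. EIF4A1, the translation initiation helicase, fell by 2.30 and its paralog EIF4A2 by 5.68, DICER1, which cuts microRNA precursors, fell by 1.62, and SNRNP200, which unwinds U4 from U6, rose by 1.45. The check without peaks over snoRNA peaks covered only the DDX and DHX members, so the part of such peaks in these values was not tested. With SRSF1, 1 of 11 rose, namely EIF4A2 by 1.53, and none fell, against 6.38% and 1.95% of all genes. With hnRNPA1 2 of 16 rose, MTREX by 1.33 and YTHDC2 by 1.29, and none fell, against 4.31% and 34.1% of all genes. Of 29 tested genes for proteins that work with helicases, 3 rose and 9 fell with U2AF2, with a median log2 change of 0.23. ALYREF and THOC1, which join DDX39B in the export complex, both fell, THOC1 by 3.54 on the log2 scale; ALYREF had a called peak in only 1 overexpression library, so no size is given. The splicing factor gene RBM17 fell by 4.50. With SRSF1, 1 of 17 rose, and with hnRNPA1 2 of 23 rose and 4 fell.

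None of the 251 skipped exon events that the authors selected from RNA-seq of 2 overexpression and 2 control samples lay within the span of a helicase gene's peaks, so no exon inclusion is given for any member.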

How the data were processed

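Deposited iCLIP peaks were called by the authors in each library alone, using CLIPper and hg19 as the genome, per the file headers; the submitters' processing notes name TopHat and Bowtie2, with versions not given in the sources used here. Each deposited peak carries a p-value and a read count within its name. Of the deposited RNA-seq table only event positions were used. Reads in peaks of at least 6 reads were summed per gene and library, divided by median-of-ratios size factors within each protein, and log2(value + 1) was fitted on condition with limma 3.58.1 in R 4.3.3 (lmFit, trended eBayes). The filter kept genes with peaks in 50% or more of a protein's libraries; p-values were Benjamini-Hochberg adjusted over all genes tested, with a threshold of 0.05. Tables were handled with Python 3.11.15. Of 19362 gene IDs 17814 matched a symbol. Because size factors were set within each protein, normalised values compare libraries of 1 protein only.

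Values per library are given for 12 genes chosen by role and, per protein, for the 6 called members with the largest change in each direction; sites were counted as present in a condition from 2 libraries. The members, lists and tests were chosen with earlier results of these data known. Alternatives covered scaling, filters, pseudocount, depth, peak number, the replicate block and each library left out. On simulated data unchanged genes were also called in the U2AF2 and hnRNPA1 comparisons, nearly all of them towards the deeper condition. There the minimum of 6 reads was set per gene, not per peak as in the data. The simulation therefore cannot say how many calls of the data arise this way. Same-numbered libraries did not deviate together, so they were not paired. Genes with patterns most like those of DDX5 and DDX17 are not reported here.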

Additional observations from a re-analysis of the deposited data

Results flagged for a closer look

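A test of the difference between the U2AF2 and SRSF1 changes over the 12 libraries picked out 9 helicase genes (limma, adjusted p below 0.05). The U2AF2 change minus the SRSF1 change, on the log2 scale, was -3.86 for DDX5, -2.94 for DDX17, -2.30 for DDX39B, -2.11 for DDX46, -3.09 for DHX15 and -2.74 for DDX3X. On total reads in peaks or by number of peaks DDX46, DHX15 and DDX3X missed the threshold, by number of peaks DDX39B did too, and with quantile normalisation DDX17, DDX39B and DDX46 did. For DDX18 it was -4.10 and for DDX47 -3.77, but neither had a called SRSF1 peak in control, so the size of these 2 depends on the pseudocount. For DDX55 it was 1.80, from an uncalled U2AF2 change of 0.41 and a called SRSF1 change of -1.39. U2AF2 overexpression libraries were deeper than their controls and the SRSF1 libraries differed less. With every library thinned to the shallowest of its protein, 6 members were below and 1 above.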

How the results depend on the processing

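Of the 22 U2AF2 calls, DDX3X, DDX5, DDX17 and DDX31 kept direction and threshold under every alternative run; DHX37, with no called peak in control, did so where tested, but was not tested with a peak in every library, when thinned or without an overexpression library. The number of peaks per gene gave 8 calls, and over all 12709 genes 2280 higher and 1129 lower. It also turned DDX12P (0.12), DDX18 (0.01), DDX46 (0.15), DDX51 (-0.03) and DHX30 (0.39), total reads turned DDX12P (0.04) and DHX30 (0.08), and quantile normalisation turned DDX49 (-0.11). Leaving out single libraries gave 10 to 27 U2AF2 calls, 0 to 1 for SRSF1, 0 to 20 for hnRNPA1 and 5 to 10 for the difference between proteins, where the number of peaks left 2 and turned DDX46 (0.32). SRSF1 gave 1 call by quantile normalisation (DDX17, lower, not called otherwise), 1 by number of peaks and 1 when thinned. It gave 0 with a peak in every library, no filter or pseudocount 5. The replicate block left 0 SRSF1 calls and moved no other count by over 1.5 times (17, 10 and 6 for U2AF2, hnRNPA1 and the difference); no group's libraries correlated by number. The hnRNPA1 calls were 0 by quantile normalisation, 2 with a peak in every library and 4 when thinned; DDX23 (0.34) and DHX16 (0.42) turned by quantile and DDX17 (-0.51) when thinned. Sites found with overexpression only numbered 76 (U2AF2), 5 (SRSF1) and 18 (hnRNPA1) when thinned, and 189 and 2 for U2AF2 and hnRNPA1 in peaks of at least 10 reads. Control-only sites numbered 53 for hnRNPA1 when thinned and 9 for SRSF1 in those higher peaks. The cause of these shifts was not tested. No paired analysis was possible for exon inclusion, nor leaving out a replicate, because no event lay within the span of a helicase gene's peaks. An SRSF1 peak was called for 37 members, and 12 of these had one in too few libraries to be tested.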

Other observations

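Several helicase genes share peaks with a neighbour. In DDX47, 76.7% of the reads over all libraries stood in peaks also listed under an unnamed gene ID, in DDX19A 16.3%, in DHX33 16.2% (with C1QBP) and in DDX46 3.26% (with C5orf24).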
